A study of Mus musculus with 3 samples.

Results

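The genes described here are 35 interferon-stimulated genes, read in single microglia of 8-week-old mice. They were taken from a fixed list of names, and all 35 were found among the 15338 genes of the 3 libraries. The libraries were a Control library from a wild type male, an hCD33M library from a male and an hCD33m library from a female, 1 library for each genotype. CD33 is a sialic acid-binding inhibitory receptor of myeloid cells; hCD33M is the long human isoform and hCD33m the short one, which lacks the ligand-binding domain. Per the study's methods, each transgene sits in Rosa26 behind a stop cassette that Cx3cr1-Cre removes, and the hCD33m line came from a single C57BL/6NTac embryonic stem cell clone and was bred to C57BL/6J. Whether the Control mouse carried Cre, and how many mice went into each library, is not given for this experiment in the sources used here. All 3 groups were perfused with actinomycin D and triptolide, and brains were kept cold with anisomycin added, to limit transcription and translation during isolation. The methods list no inhibitor for the later Percoll, staining and sorting steps. How far transcription and translation were blocked was not measured here. The sort took cells positive for Cx3cr1, CD11b and CD45. Sex, animal, line and library preparation cannot be told apart from genotype for hCD33m, nor animal, line and preparation for hCD33M, and no test between genotypes was possible. The same holds for Cre at the Cx3cr1 locus in both transgenic libraries, unless the Control mouse also carried it. All intervals below are 95% intervals that cover counting error only.

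Type I interferons bind a receptor that activates the kinases Jak1 and Tyk2. A complex that includes Stat2 and Irf9 then binds the interferon-stimulated response element and switches on a broad antiviral program. Microglia keep a low tonic level of this program in healthy brain, and a small set of interferon-responsive microglia with a strong program is a known state of the ageing, infected or injured brain. The program includes proteins that bind viral RNA, modify proteins with Isg15, block viral entry and release, sense nucleic acids, and feed back on the pathway itself.

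The files held 3482 Control, 5100 hCD33M and 5707 hCD33m barcodes, of which 3412, 5046 and 5612 passed the study's stated filter. Clusters were built without the members and the listed genes of the interferon pathway, so member counts did not enter the clustering. Unlisted genes that vary with the members, such as Fgl2 and B430306N03Rik, were not left out and could still shape the clusters. The clustering gave 2992 Control, 4550 hCD33M and 4873 hCD33m microglia-like cells, with 19159487, 26475561 and 29459216 UMIs (molecules counted by barcode). All 12 microglial markers were found in them, and their summed level was 36797, 33776 and 35997 CPM (UMIs scaled to a library total of 1e+06). The 12 monocyte markers summed to 610, 676 and 630 CPM in the same cells and the 12 markers of border-associated macrophages to 89.98, 97.0 and 108 CPM. Small border-associated macrophage-like (85, 101 and 126 cells) and monocyte-like classes (18, 23 and 28 cells) were kept apart. Cells of 2 clusters of low UMI number stayed unnamed. Cx3cr1, the locus of the Cre driver and a sort marker, was at 5671 CPM in Control, 3349 in hCD33M and 3152 in hCD33m. What part Cre at this locus had in the differences from Control below was not tested. The hCD33 transgenes were not analysed here. Libraries shared 7 to 10 barcodes in each pair. A list of 17 early-response genes, which isolation can induce, had a median log2 ratio to Control of -0.18 in hCD33M and 0.45 in hCD33m; its part in the results below was not tested. One microglia-like cluster, led by Cst7 and Vcam1, held no Control cell but 164 hCD33M and 154 hCD33m cells.

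Members lie in several genomic clusters (GENCODE M21, mm10). Ifit2, Ifit3, Ifit3b and Ifit1 stand within 99.3 kb at chr19:34550694-34650009. Slfn5, Slfn8 and Slfn2 lie at chr11:82951349-83070678, and Oasl2 and Oasl1 side by side at chr5:114896936-114937915. Ifit3 and Ifit3b are near-identical copies, and their promoter windows shared an unbroken run of 169 bases. Counts of these 2 genes, and of the Slfn, Ifi200, Oas and Trim30 families, may be split between copies by the authors' alignment and are uncertain at the level of the single gene.

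Promoter windows of 300 bases (RefSeq, GRCm38.p6, 250 bases before to 50 after the start) matched 27 of the 35 members. Rtp4, Ifi204, Ifi27l2a, Usp18, Mx1, Dhx58, Zbp1 and Parp14 had no entry. The core of the interferon-stimulated response element was searched as GAAA, any 2 bases, GAAA, on both strands, with overlapping matches allowed. It was found for 15 of the 27 members (55.6%), for 25 of 56 other interferon-stimulated genes (44.6%) and for 1079 of all 27025 genes (3.99%). The gamma-activated site, TTC, any 3 bases, GAA, was found for 6 of the 27 members (22.2%), for 3 of the 56 other genes (5.36%) and for 2582 of all genes (9.55%). Shown here are the 6 members with a response-element match whose level differed most between strong responders and other cells, as described further on (4 of them are themselves among the genes that chose those cells), with the match in capitals, 5′ to 3′ along the gene.
Ifit3b (chr19:34607707-34608006, plus strand): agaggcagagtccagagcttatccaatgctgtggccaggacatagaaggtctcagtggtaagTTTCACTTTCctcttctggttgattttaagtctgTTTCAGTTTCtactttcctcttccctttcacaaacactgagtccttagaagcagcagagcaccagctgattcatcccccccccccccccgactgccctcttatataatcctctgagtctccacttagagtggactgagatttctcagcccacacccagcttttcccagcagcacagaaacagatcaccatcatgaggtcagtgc
Ifit1 (chr19:34640639-34640938, plus strand): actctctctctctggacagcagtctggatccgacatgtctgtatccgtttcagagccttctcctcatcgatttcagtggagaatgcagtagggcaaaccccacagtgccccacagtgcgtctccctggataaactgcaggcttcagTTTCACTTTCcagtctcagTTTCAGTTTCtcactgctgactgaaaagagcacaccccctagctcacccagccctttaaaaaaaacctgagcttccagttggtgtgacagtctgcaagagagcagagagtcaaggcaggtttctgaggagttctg
Cxcl10 (chr5:92348840-92349139, minus strand): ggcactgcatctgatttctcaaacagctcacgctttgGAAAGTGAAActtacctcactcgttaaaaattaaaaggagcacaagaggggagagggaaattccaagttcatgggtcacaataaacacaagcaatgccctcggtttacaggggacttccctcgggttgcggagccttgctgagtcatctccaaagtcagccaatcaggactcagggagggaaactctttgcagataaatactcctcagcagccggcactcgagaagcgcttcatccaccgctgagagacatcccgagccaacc
Ifit3 (chr19:34583279-34583578, plus strand): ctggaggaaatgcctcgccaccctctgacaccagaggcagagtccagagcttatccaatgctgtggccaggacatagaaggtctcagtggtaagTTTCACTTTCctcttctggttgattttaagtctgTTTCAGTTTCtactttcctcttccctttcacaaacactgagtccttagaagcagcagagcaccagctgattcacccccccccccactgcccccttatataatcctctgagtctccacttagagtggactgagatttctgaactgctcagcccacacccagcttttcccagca
Isg15 (chr4:156200769-156201068, minus strand): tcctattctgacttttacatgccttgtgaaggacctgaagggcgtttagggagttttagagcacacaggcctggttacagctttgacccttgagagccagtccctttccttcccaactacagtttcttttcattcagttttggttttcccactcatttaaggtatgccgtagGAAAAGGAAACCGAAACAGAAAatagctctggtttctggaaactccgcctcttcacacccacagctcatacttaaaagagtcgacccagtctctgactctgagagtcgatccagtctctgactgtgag
Ifitm3 (chr7:141010695-141010994, minus strand): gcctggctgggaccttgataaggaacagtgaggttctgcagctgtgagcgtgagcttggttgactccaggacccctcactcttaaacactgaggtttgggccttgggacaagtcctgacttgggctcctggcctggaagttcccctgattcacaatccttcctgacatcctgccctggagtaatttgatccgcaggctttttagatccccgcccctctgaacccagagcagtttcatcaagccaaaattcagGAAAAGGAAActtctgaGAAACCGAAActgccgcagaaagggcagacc
In Ifit3 and Ifit3b the pair of matches began 156 and 122 bases before the start in Ifit3 and 188 and 154 before it in Ifit3b. Ifit1 held a pair that began 104 and 85 bases before the start. The 3 matches of Isg15 overlapped in 1 run that began 78 bases before the start. Cxcl10 had a single match, 213 bases before the start, and the pair in Ifitm3 lay just after the start. A match is a run of letters and not a measured binding site.

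In microglia-like cells the 35 members together made up 1032 CPM in Control, 1244 in hCD33M and 1209 in hCD33m. The antiviral effectors that bind RNA 5′ ends were rare. The 4 Ifit genes summed to 26.4 CPM in Control, 34.0 in hCD33M and 26.7 in hCD33m, and Ifit3 was seen in 3.88%, 4.86% and 4.31% of cells. Isg15, a ubiquitin-like protein attached to other proteins, was at 17.0, 23.98 and 24.03 CPM, and its removing enzyme Usp18, which also damps the interferon receptor, at 4.12, 7.97 and 7.64 CPM. Herc6, the ligase that attaches Isg15 in mice, was at 32.7, 35.4 and 37.6 CPM.

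Low members also included Ifit1, at 3.601 CPM in Control, 4.27 in hCD33M and 4.92 in hCD33m. Ifit3b was at 3.24, 3.32 and 2.55 CPM, and Oasl1 at 0.52, 1.21 and 1.05. Irf7 was at 3.497, 4.72 and 4.65 CPM, Mx1 at 4.59, 5.93 and 4.75, and Zbp1 at 1.88, 3.44 and 2.04. Rtp4, a transporter protein that restrains viral RNA replication, was at 20.8, 28.1 and 29.9 CPM. Parp14, an ADP-ribosyltransferase, was at 58.9, 66.3 and 68.1 CPM, Slfn8 at 61.6, 64.3 and 67.6, Slfn5 at 13.1, 14.8 and 13.8, and Xaf1, which promotes cell death, at 31.3, 34.4 and 35.7. Control was the lowest library for each of these genes but Ifit3b, where hCD33m was. Oas1a, another low member, went the other way, at 3.34 CPM in Control, 2.80 in hCD33M and 2.82 in hCD33m.

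A second set was seen in a large share of cells in every library. Bst2, also called tetherin, which holds budding virus at the cell surface, had a UMI in 59.4% of Control, 56.8% of hCD33M and 54.1% of hCD33m cells. Trim30a, a restriction factor that damps Toll-like receptor signalling, was seen in 37.5%, 39.1% and 44.1% of cells, and Samhd1, which breaks down the nucleotide pool, in 36.9%, 39.3% and 38.0%. Lgals3bp, a secreted glycoprotein, was seen in 34.4%, 39.3% and 42.6% and Irf9, the DNA-binding subunit of the interferon-activated complex, in 24.3%, 24.5% and 25.8%. At the other end were Cxcl10, a secreted chemokine, in 0.33%, 0.35% and 0.45% of cells, and Ifi44, with only 3 UMIs in Control, 37 in hCD33M and 28 in hCD33m. The RNA sensors Ifih1, Ddx58 and Dhx58 lay between these ends. Ifih1 was seen in 11.3%, 11.6% and 11.6% of cells, Ddx58 in 13.7%, 14.2% and 12.9% and Dhx58, their regulator, in 6.15%, 6.15% and 5.66%. These shares come from libraries of different depth, with medians of 5566, 5186 and 5286 UMIs in a cell.

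**Figure D1:**
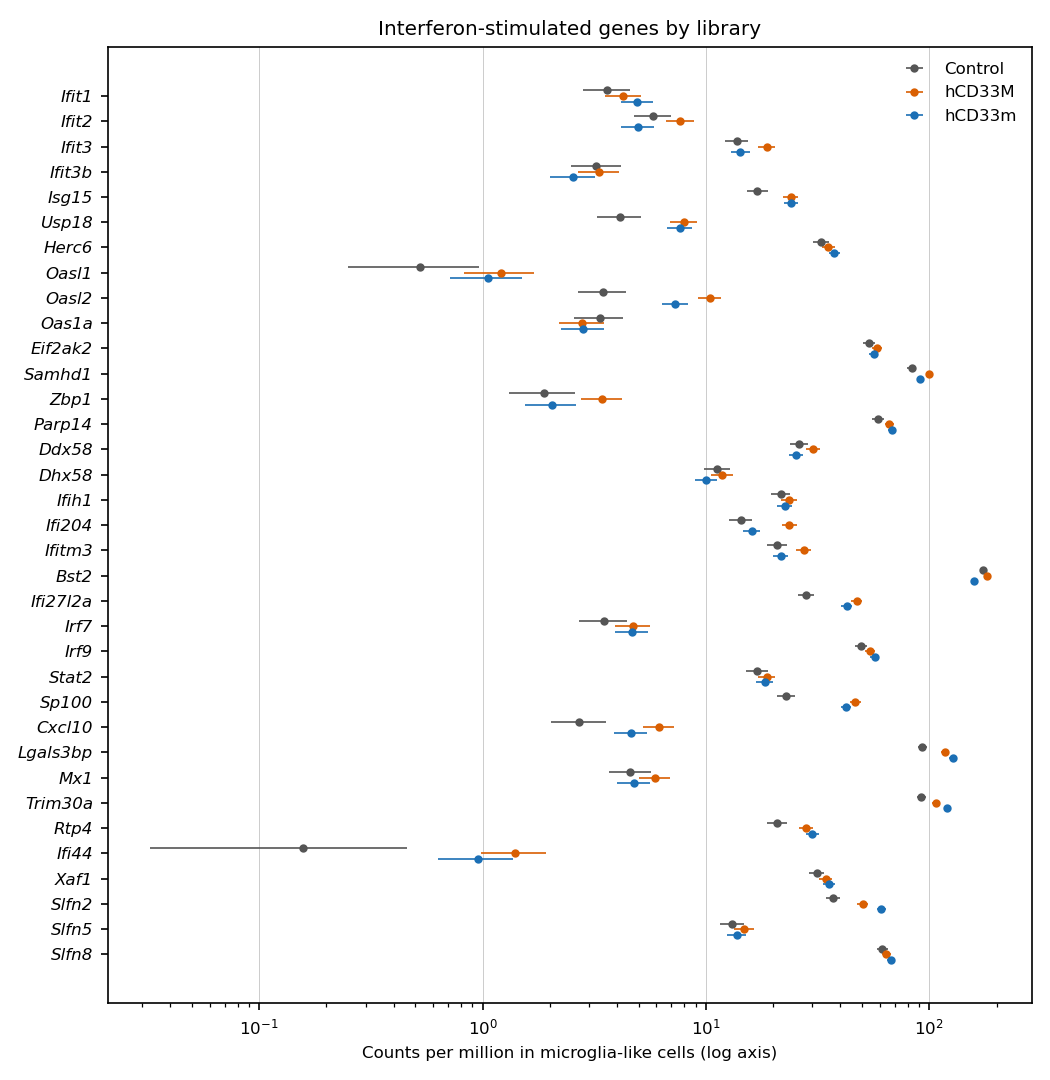
Level of each of the 35 interferon-stimulated genes in microglia-like cells, in CPM on a log axis, for the 3 libraries (bars: 95% Poisson intervals, counting error only). Sp100 stood at 22.9 CPM in Control against 46.7 and 42.4 in hCD33M and hCD33m, whereas Bst2 was at 174, 182 and 159 CPM.

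Set against Control, nearly all members were higher in hCD33M. Ratios were read where the higher of both libraries reached 5 CPM, which 28 members did. All 28 had a log2 ratio above 0, with a median of 0.30, where all 9735 genes past the same minimum had a median of 0.01 and 53.8% of them were above 0. Cxcl10, Mx1, Oasl2 and Usp18 reached the minimum in hCD33M only, and the other 24 were all above 0 with a median of 0.21. Without the minimum, 34 of 35 were above 0, and the exception was Oas1a, an RNA sensor that makes oligoadenylate, at 3.34 CPM in Control and 2.80 in hCD33M. The interval lay above 0 for 19 of the 28 and below 0 for 0, against 16.6% and 11.4% of all genes. Past 1.5-fold, 6 members were higher (Oasl2, Ifi204, Ifi27l2a, Usp18, Cxcl10 and Sp100) and 0 lower, where 0.760% of all genes were higher and 0.462% lower by that rule.

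The hCD33m library differed less and less evenly from the same Control library. Of 26 measured members, 22 had a log2 ratio above 0, the median was 0.18, and all 9749 genes had a median of 0.00 with 49.5% above 0. Ifit2, Oasl2 and Usp18 reached the minimum in 1 of both libraries only, and of the other 23 members 20 were above 0, with a median of 0.16. Without the minimum 29 of 35 were above 0. Oasl2, Ifi27l2a, Usp18, Sp100 and Slfn2 were over 1.5-fold higher and 0 lower, where 1.15% of all genes were higher and 1.30% lower. Intervals lay above 0 for 15 of the 26 and below 0 for 1, Bst2, at -0.13 (-0.20 to -0.07), against 18.9% and 19.8% of all genes. For 12 of the 26 members measured in both comparisons, the intervals lay above 0 in hCD33M and in hCD33m, as they did for 8.07% of all genes: Isg15, Rtp4, Oasl2, Ifi27l2a, Usp18, Irf9, Trim30a, Parp14, Sp100, Lgals3bp, Slfn2 and Samhd1. Both comparisons share the Control library, so its own deviation enters both.

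Sp100, a nuclear body protein that represses foreign DNA, was the member with many UMIs that differed most. It was at 22.9 CPM in Control (interval 20.8 to 25.2), 46.7 in hCD33M and 42.4 in hCD33m, with log2 ratios to Control of 1.03 (0.87 to 1.19) and 0.89 (0.73 to 1.05). Both transgenic libraries were high and close to each other, and the Control interval did not reach either. The difference held within each of the 4 largest microglia-like clusters, where the log2 ratio was 1.30, 0.87, 0.87 and 1.21 for hCD33M and 1.34, 0.51, 0.83 and 1.05 for hCD33m, and each interval lay above 0. In the proliferating cluster of 46 cells and in the one led by Ccl4 the hCD33m interval reached across 0.

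Slfn2, a Schlafen protein that keeps immune cells quiescent, was at 37.2 CPM in Control, 50.3 in hCD33M and 61.0 in hCD33m. It was higher in hCD33m than in hCD33M, at 0.28 (0.17 to 0.38). In the largest cluster it was at 28.2, 29.9 and 51.1 CPM, so there only hCD33m stood apart. Ifi27l2a, a small membrane protein, was at 28.1, 47.3 and 42.6 CPM. Lgals3bp, at 93.2, 117 and 127 CPM, had a smaller but precise ratio of 0.33 (0.25 to 0.42) and 0.45 (0.37 to 0.53). In the cluster without Control cells Lgals3bp was at 269 CPM in hCD33M and 253 in hCD33m, above its level in the 4 largest clusters.

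Oasl2, a protein related to the oligoadenylate synthetases, was at 3.44 CPM in Control, 10.4 in hCD33M and 7.30 in hCD33m, the largest ratio to Control of any member past the 5 CPM minimum, at 1.59 (1.20 to 2.00) and 1.08 (0.68 to 1.504). Without the highest cell of each library these ratios were 1.60 and 1.13. Cxcl10 was another matter. Its 52, 163 and 136 UMIs came from 10 Control, 16 hCD33M and 22 hCD33m cells, and a single cell held 38.5%, 45.4% and 74.3% of them. Without that cell the log2 ratio to Control went from 1.18 to 1.01 (0.41 to 1.64) in hCD33M and, in hCD33m, where it was under the minimum of 5 CPM, from 0.77 to -0.49 (-1.23 to 0.25). Ifi44 had 3 Control UMIs, and 14 of its 37 hCD33M UMIs were in 1 cell. Its ratio of 3.16 to Control had an interval of 1.499 to 5.4997.

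Between the transgenic libraries more members were lower in hCD33m than higher, mostly by less than 1.5-fold. Of 28 measured members, 10 were higher in hCD33m and 18 lower, with a median log2 ratio of -0.09 against -0.02 over 9726 genes, of which 45.3% were above 0. Over the 25 members that reached 5 CPM in both libraries the median was -0.06. Past 1.5-fold, 0 were higher and 1, Ifit2, lower, where 0.709% of all genes were higher and 0.997% lower. Ifit2 was at 7.67 CPM in hCD33M and 4.96 in hCD33m, and Ifi204, a DNA sensor of the p200 family, at 23.6 and 16.0 CPM, a log2 ratio of -0.56 (-0.74 to -0.39). Trim30a, Lgals3bp and Slfn2 had intervals above 0, 3 of 28 where 14.6% of all genes did, and 12 members had intervals below 0, where 21.7% did.

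A library's level of a gene can come from a few very high cells or from many cells at a low level. To read these apart, 9 members were set aside as anchor genes (Ifit1, Ifit2, Ifit3, Ifit3b, Isg15, Rtp4, Oasl1, Oasl2 and Usp18), and each cell was thinned to 2000 UMIs. Cells with at least 3 anchor genes were called strong responders, and the other 26 members, which took no part in that choice, were read in them. Members and anchor genes were themselves chosen with earlier results of these data known, so the 26 are not a fully independent readout. Cells are called here without an anchor gene when none was seen after thinning. CPM were taken from all UMIs of the cells, so the anchor genes still summed to 21.2, 26.1 and 32.7 CPM in the Control, hCD33M and hCD33m cells without one. Cells with under 2000 UMIs were left out, 37 in Control, 53 in hCD33M and 49 in hCD33m.

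Most microglia-like cells had no anchor gene: 91.9% in Control and 89.1% in both transgenic libraries. A single anchor gene was seen in 6.70%, 8.61% and 8.997% of cells. Strong responders made up 0.609% of Control cells, 18 of 2955, with an exact binomial interval of 0.361 to 0.961%. In hCD33M they made up 1.16%, 52 of 4497 (0.865 to 1.51%). In hCD33m they made up 0.974%, 47 of 4824 (0.717 to 1.29%). The share in hCD33M was 1.90 times that in Control (1.09 to 3.45) and in hCD33m 1.60 times (0.912 to 2.93), so for hCD33m the interval of the ratio held 1. Of the 117 strong responders 50 sat at exactly 3 anchor genes, and 116 other cells sat just under the limit with 2. The shares depend on depth and limit: at 4000 UMIs they were 1.20%, 1.99% and 1.40%, and at 1000 UMIs 0.335%, 0.528% and 0.349%. Before thinning, strong responders had a median of 6011, 5563 and 5210 UMIs against 5594, 5215 and 5318 in cells without an anchor gene, so they were deeper in Control and hCD33M and shallower in hCD33m.

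**Figure D2:**
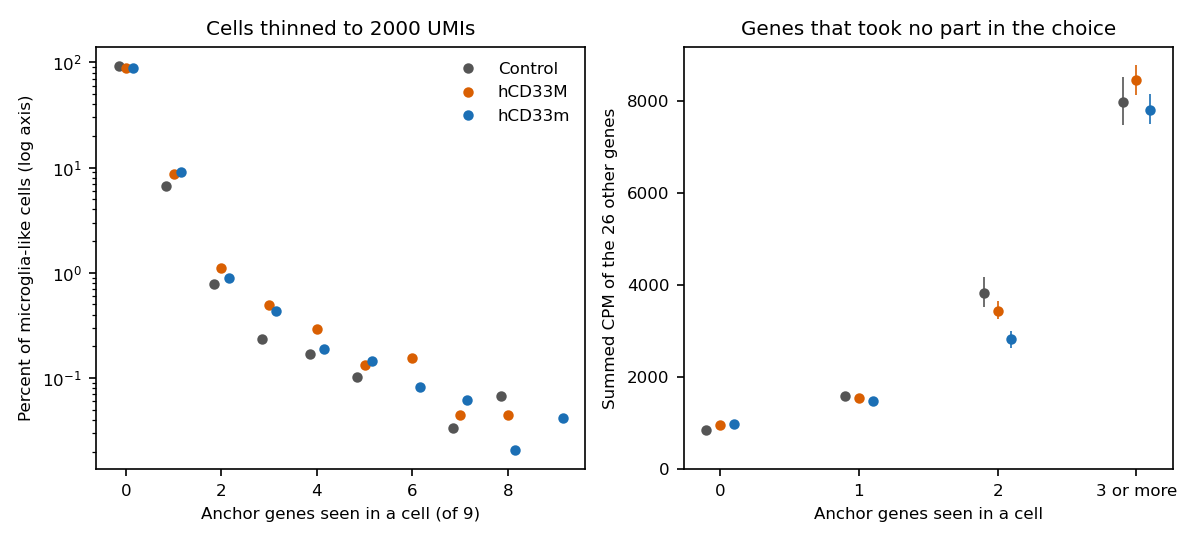
Left, percent of microglia-like cells (log axis) by the number of the 9 anchor genes seen after thinning to 2000 UMIs, with a point for each library, values of 0 not drawn. Right, summed CPM of the 26 members not used in the choice, by number of anchor genes, with 95% Poisson intervals; it climbed from 848 to 7976 in Control, 965 to 8443 in hCD33M and 980 to 7805 in hCD33m.

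The 26 members outside the choice followed the anchor genes in steps. In Control their summed level was 848 CPM in cells without an anchor gene, 1585 with 1, 3832 with 2 and 7976 in strong responders. In hCD33M the steps were 965, 1544, 3442 and 8443 CPM, and in hCD33m 980, 1488, 2814 and 7805. The strong responders of the 3 libraries thus lay close to each other, while cells without an anchor gene were lowest in Control and cells with 2 were lowest in hCD33m. At 2000 UMIs the median strong responder had UMIs of 8.5 of the 26 genes in Control, 9 in hCD33M and 10 in hCD33m, where the median cell without an anchor gene had 1, 2 and 1. One hCD33m strong responder had just 1 of the 26 genes and the highest hCD33M one had 19.

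With the libraries summed, each of the 26 genes was higher in strong responders than in cells without an anchor gene, with its interval wholly past 1.5-fold, where 2.46% of 9957 genes were that much higher and 0.0703% that much lower. The median log2 ratio was 3.24 against -0.06 over all genes. Cxcl10, Ifi44, Zbp1, Irf7 and Oas1a passed the 5 CPM minimum through the strong responders and were under 5 CPM over all microglia-like cells. Of the 21 others, 21 had intervals past 1.5-fold higher and 0 lower, where 1.62% and 0.104% of the 9604 genes with 5 CPM over all microglia-like cells did, and their median was 3.02 against -0.08. Mx1, 1 of these 21, was at 2.90, 4.10 and 3.30 CPM in Control, hCD33M and hCD33m with strong responders left out. Its place among the 21, here and in the counts that follow, thus rests on the strong responders. In each library taken alone 25 of the 26 were over 1.5-fold higher. The exception was Ifi44, with no UMI in the 18 Control strong responders. Of the genes with 5 CPM over all cells 2.01% were that much higher in each library, the 21 members among them. Cells with 1 anchor gene were already above cells without one, with the interval above 0 for 20 of the 21 members and for 4.48% of all genes. Samhd1 was the exception, at 0.09.

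Cxcl10 differed most, at 0.45 CPM in cells without an anchor gene against 139 in strong responders of Control, 1.06 against 274 in hCD33M and 1.11 against 370 in hCD33m, with the single-cell limit given above. Next were Ifi44, Zbp1, a sensor of Z-form nucleic acid that triggers cell death, and Irf7, the factor that amplifies interferon production. Irf7 was at 1.65 against 157 CPM in Control, 1.45 against 180 in hCD33M and 2.33 against 155 in hCD33m. Mx1, a dynamin-like GTPase that traps viral particles, was at 1.99 against 287, 3.15 against 149 and 2.79 against 155 CPM. Ifitm3, which blocks fusion of virus with the endosome, was at 11.7 against 601, 14.6 against 656 and 11.8 against 638 CPM. Of the genes named here only Ifitm3, at 12.7 CPM with the libraries summed, passed 5 CPM in cells without an anchor gene. The cells were chosen by genes of the same program, and these genes were named for large ratios. The size of these ratios is thus fixed in part by the choice and cannot be set against the differences between libraries.

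The smallest ratios were those of Irf9 and Samhd1. Irf9 had a log2 ratio of 1.31 (0.99 to 1.61) and Samhd1 of 1.62 (1.41 to 1.83). Lgals3bp, Slfn8, Ifih1, Eif2ak2, the kinase that halts translation on double-stranded RNA, and Bst2 followed, from 2.25 to 2.46. Bst2 was at 161 CPM in cells without an anchor gene and 958 in strong responders of Control, 164 and 868 in hCD33M and 146 and 814 in hCD33m. Sp100 kept its difference between libraries on both sides: 20.2 CPM in Control, 39.1 in hCD33M and 37.8 in hCD33m without an anchor gene, and 157, 302 and 292 CPM in strong responders. The log2 ratio between the states was 2.96, 2.95 and 2.95.

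**Figure D3:**
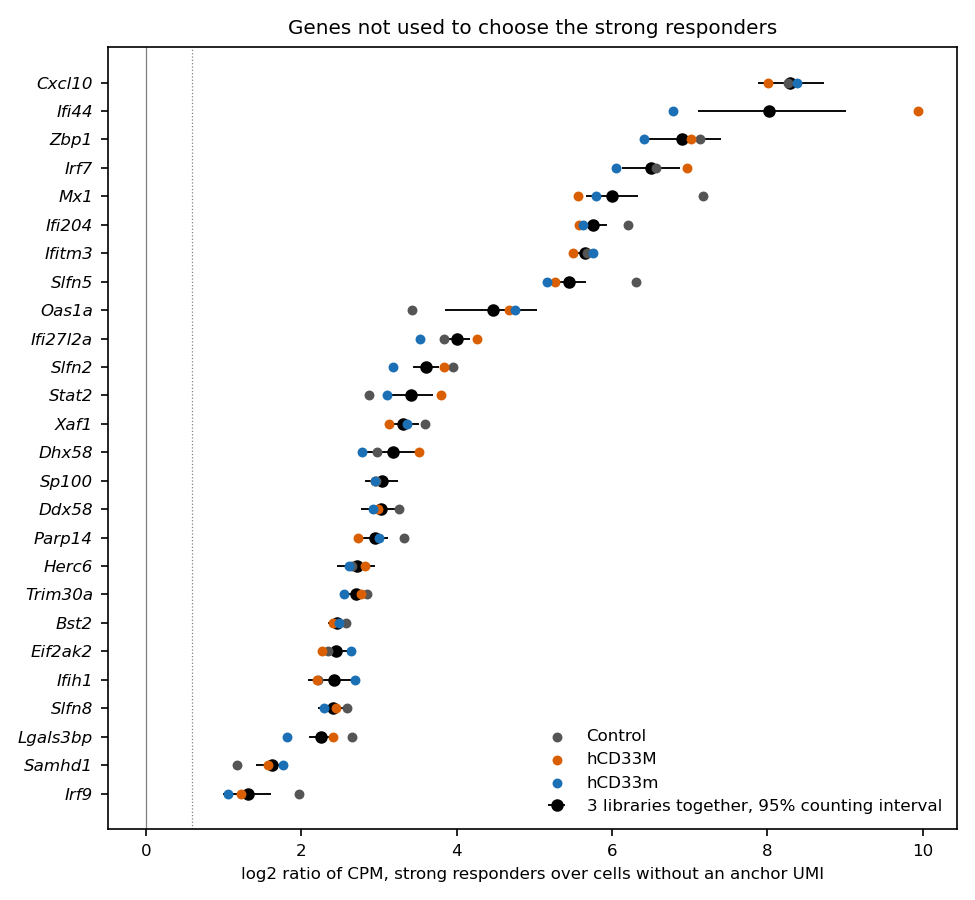
Log2 ratio of CPM between strong responders and cells that had no anchor UMI after thinning to 2000 UMIs (CPM from all UMIs) for the 26 members that took no part in choosing the cells, with all libraries together (black, 95% counting interval) and each library alone (colours), and the 1.5-fold line dotted. All lay to the right of that line, from Irf9 at 1.31 to Cxcl10 at 8.30; Ifi44 had no UMI in Control responders, so no Control point is drawn.

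The strong responders were not uniform. After thinning, Bst2 was seen in 93 of the 117 (79.5%), Trim30a in 80 (68.4%), Lgals3bp in 72 (61.5%) and Ifitm3 in 66 (56.4%). Cxcl10 and Ifi44 were each seen in 7 (5.98%), Oas1a in 8 (6.84%) and Dhx58 in 16 (13.7%). In cells without an anchor gene Bst2 was seen in 25.2% and Ifitm3 in 2.01%. How much of a gene's total came from strong responders therefore varied: for Ifi204 24.2% in Control, 31.4% in hCD33M and 29.1% in hCD33m, for Zbp1 30.6%, 53.9% and 39.7%, for Bst2 3.30%, 5.81% and 4.95%. Over the 26 genes it was 4.99%, 9.03% and 6.79% of UMIs.

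By cluster, 60 of 3934 cells of the cluster led by Lsp1 and Tspo were strong responders (1.53%, 1.17 to 1.96%), against 21 of 4054 (0.518%, 0.321 to 0.791%) in the largest cluster, led by Khdrbs3 and Upk1b. In the former the shares were 7 of 938 Control cells, 25 of 1461 hCD33M cells and 28 of 1535 hCD33m cells. In the cluster without Control cells they were 2 of 162 and 0 of 154. The latter 0 allows a share of up to 1.95%. No cell class known to lack these genes was present, so free RNA could not be measured with them. Of the unnamed cells deep enough to be thinned, with medians of 3051, 2946 and 2909 UMIs where no anchor gene was seen, 4.84%, 11.8% and 5.98% had a single anchor gene. None of 124 Control, 93 hCD33M and 117 hCD33m cells was a strong responder, which allows up to 2.42%, 3.23% and 2.56%.

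Leaving the strong responders aside, the members used as readout remained a little higher in the transgenic libraries. Over 20 genes with at least 5 CPM in cells without an anchor gene, the median log2 ratio to Control was 0.15 in hCD33M and 0.14 in hCD33m, with 17 of 20 above 0 in each. Over all genes in the same cells the medians were 0.01 and 0.00, and 53.2% and 49.2% were above 0. Past 1.5-fold higher stood 2 of the 20 in each, Sp100 and Ifi204 in hCD33M and Sp100 and Slfn2 in hCD33m, where 0.741% and 1.24% of all genes did. Ifi204 was at 7.78 CPM in Control, 12.8 in hCD33M and 9.75 in hCD33m in these cells, and Ifi27l2a at 21.98, 32.9 and 32.4 CPM. Lgals3bp, at 83.3, 105 and 117 CPM, and Trim30a, at 83.4, 94.4 and 110 CPM, had intervals above 0 in both. Stat2, the signal carrier of the interferon receptor, did not, at 15.4, 15.03 and 15.6 CPM. Whether more strong responders and the higher level in other cells have 1 source was not tested.

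**Figure D4:**
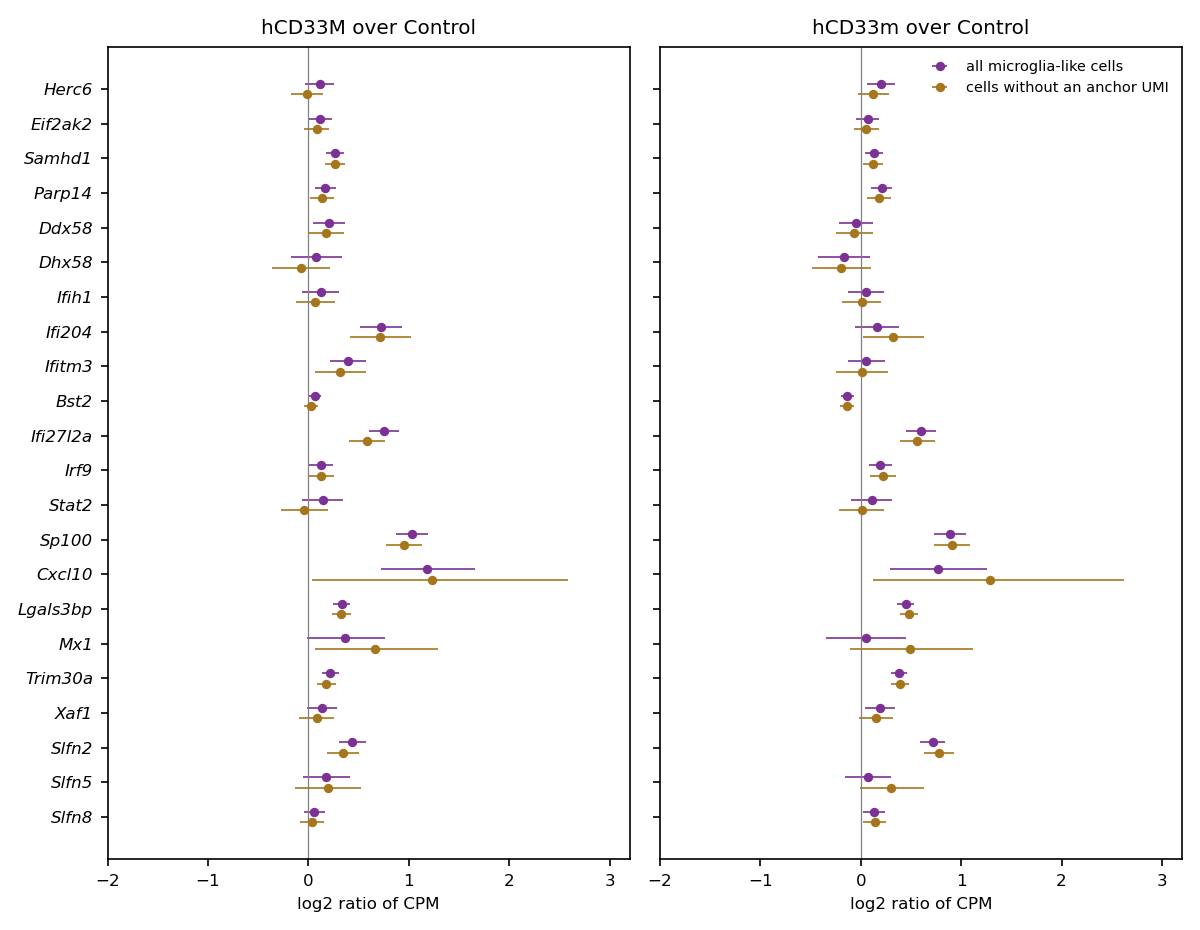
Log2 ratio of CPM to Control for members not used to choose strong responders, in all microglia-like cells (purple) and in cells without an anchor UMI after thinning (brown), for hCD33M (left) and hCD33m (right), with 95% counting intervals. Sp100 was at 1.03 and 0.96 in hCD33M and 0.89 and 0.91 in hCD33m, while the wide brown interval of Cxcl10 rests on few UMIs.

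In cell-by-cell terms, pairs of anchor genes had a median Pearson correlation of 0.34 in 2955 Control cells, 0.28 in 4497 hCD33M cells and 0.31 in 4824 hCD33m cells at 2000 UMIs. Without strong responders the medians were -0.0016, 0.0081 and -0.0016, a difference that the choice of cells fixes in part. For pairs of the 26 other genes the medians were 0.05, 0.07 and 0.05 with strong responders and 0.02 in each library without them. By the lowest value over the 3 libraries, the closest pairs were Ifit3 with Ifit3b, at 0.74, 0.54 and 0.61, and Ifit1 with Ifit3, at 0.81, 0.51 and 0.55. The first are near-identical copies. Among genes outside the anchor set Ifi204 and Ifitm3 led by the same measure, at 0.33, 0.39 and 0.29. Cells of a library share its depth and handling, counts are sparse, and values near 0 carry no finding.

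Other genes of the pathway differed between strong responders and cells without an anchor gene to different degrees, by lists chosen for their role and read where a gene had 5 CPM over all microglia-like cells. Of all 9604 genes past that minimum, 1.62% had an interval wholly past 1.5-fold higher and 0.104% lower, and the median log2 ratio was -0.08. No interferon ligand of 15 listed was among the genes of the files. Among the receptor and JAK-STAT genes, Socs1, a feedback inhibitor, had an interval past 1.5-fold, at 2.48 (1.95 to 2.97), while the receptor chains Ifnar1 and Ifnar2 were at -0.01 and 0.15. Of 14 sensing genes 3 had intervals past 1.5-fold, Tlr3, Irf1 and Adar. Of 69 other interferon-stimulated genes listed, 38 reached the minimum and 33 of these did, among them Ifi209 at 4.91. Rsad2, or viperin, at 7.56 and Cmpk2 at 6.83 were under it and reached 5 CPM only in strong responders. Of 22 interferon gamma-leaning genes listed, 10 reached the minimum and all 10 did, among them Gbp2 at 3.70. Irf1 and Socs1 each stand on 2 of these lists. Among MHC class I and peptide loading genes 12 of 18 did, with Tap1 at 1.95 and H2-K1 at 0.91, and B2m was at 0.52.

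Lists from outside the pathway were read by the same rule, by which 1.62% of all genes were higher and 0.104% lower, with a median of -0.08. None of 15 homeostatic genes had an interval past 1.5-fold in either direction, with a median of -0.12, and P2ry12, the microglial ADP receptor, was at -0.30 (-0.37 to -0.24). None of 17 early-response genes did. Beside the shares of all genes, these counts of 0 do not set the homeostatic and early-response lists apart. Of 12 disease-associated genes 3 did, Axl at 2.30, Csf1 at 1.54 and Apoe at 1.02, and the chemokine Ccl2 at 2.81 was the only one of 11 inflammatory genes. Of 10 cell cycle genes only Stmn1 reached the minimum, at 0.75, and its interval did not pass. The 10 summed to 193 CPM in hCD33M strong responders, 26.1 in Control and 14.1 in hCD33m, against 35.5, 35.6 and 42.4 in cells without an anchor gene, and 2 of the 52 hCD33M strong responders lay in the proliferating cluster. Genes outside the members were also ranked by ratio, among those with at least 50 CPM in the strong responders of every library. That minimum was set on the strong responders alone, and some genes passed it only through them. Ifi206, for example, was at 0.11 CPM in Control cells without an anchor gene and 104 in Control strong responders. The 20 genes with the highest ratio in every library by this rule included Ifi206, Iigp1, Ifi207, Rsad2, Cmpk2, Ifi209, Gm4951, Isg20, Ly6a, Ccl12, Slfn9, Phf11b, Rnf213, Fgl2, Phf11d, Ube2l6, Irgm1, B430306N03Rik and Ccl2. Ccl12, a monocyte chemoattractant, was at 152 against 2229 CPM in Control, 161 against 2249 in hCD33M and 123 against 1564 in hCD33m. The 5 lowest were Tnfaip1, Scd2, Etf1, Txndc11 and Maml3, of which Scd2, a fatty acid desaturase, was at 50.9 against 17.4, 51.2 against 28.0 and 59.8 against 14.1 CPM. They were picked as the extremes of a ranking. In Control the interval of the log2 ratio held 0 for each of these 5, with -4.59 to 0.31 for Scd2. It lay below 0 in hCD33M for Tnfaip1, Txndc11 and Maml3 only, and in hCD33m for Scd2 and Maml3 only. None of the 5 was thus shown to be lower in every library.

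Of the other interferon-stimulated genes 39 were measured in hCD33M over Control, with a median log2 ratio of 0.14, and 38 in hCD33m over Control, with a median of 0.05. Over all genes these medians were 0.01 and -0.0013. Past 1.5-fold, 0.760% of all genes were higher and 0.462% lower in hCD33M. In hCD33m 1.15% were higher and 1.30% lower. Ifi209, a p200 protein, and Gm4951, an immunity-related GTPase, were over 1.5-fold higher in both. Gm4951 was at 9.92 CPM in Control, 20.6 in hCD33M and 19.7 in hCD33m. Cd274, the checkpoint ligand PD-L1, was the 1 gene of the 38 that was past 1.5-fold lower, at 11.1 CPM in Control and 7.196 in hCD33m. Of 18 MHC class I and peptide loading genes, H2-Q6, at 5.11, 10.0 and 9.88 CPM, and H2-Q7, at 7.72, 15.3 and 12.6 CPM, were higher in both, and these are near-identical copies. No receptor, JAK-STAT, sensing or gamma-leaning gene passed 1.5-fold in these comparisons, and between the transgenic libraries no gene of these lists did. Between the transgenic libraries 0.709% of all genes were higher in hCD33m and 0.997% lower by that rule. Beside such small shares, these counts of 0 do not set the lists apart.

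Summed, the members were higher in the other myeloid classes of the sort. The 35 stood at 2603 CPM in Control, 2941 in hCD33M and 3020 in hCD33m in border-associated macrophage-like cells and at 9748, 11854 and 10101 CPM in monocyte-like cells. Of 28 members with 5 CPM over all kept cells, 15 had intervals above the microglia-like level in each library in border-associated macrophage-like cells and 0 below it, where 5.05% of all genes were above and 6.84% below. In monocyte-like cells 13 of the 28 were above and 0 below, where 6.71% and 10.5% of all genes were. Ifitm3 was at 265, 381 and 325 CPM in border-associated macrophage-like cells and 4349, 4856 and 4259 in monocyte-like cells, against 20.8, 27.3 and 21.6 in microglia-like cells. Samhd1 reached 885, 1003 and 879 CPM and Slfn2 725, 741 and 659 in monocyte-like cells. Bst2 was instead highest in border-associated macrophage-like cells, at 600, 648 and 573 CPM, with 251, 213 and 215 in monocyte-like cells.

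Not all members followed. Eif2ak2 was at 49.8, 59.3 and 51.6 CPM in border-associated macrophage-like and 68.5, 90.1 and 79.9 in monocyte-like cells, against 53.8, 58.4 and 56.4 in microglia-like cells, and the intervals of these ratios held 0. Ifi27l2a was lowest in Control in both classes, at 224, 494 and 570 CPM in border-associated macrophage-like and 1250, 2260 and 2097 in monocyte-like cells. Strong responders were 4 of 77, 4 of 100 and 3 of 119 border-associated macrophage-like cells and 1 of 18, 1 of 23 and 2 of 28 monocyte-like cells. These shares rest on few cells. The median cell without an anchor gene in these classes had 10016, 6921 and 9762 UMIs and 10006, 10429 and 5411 UMIs before thinning.

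**Figure D5:**
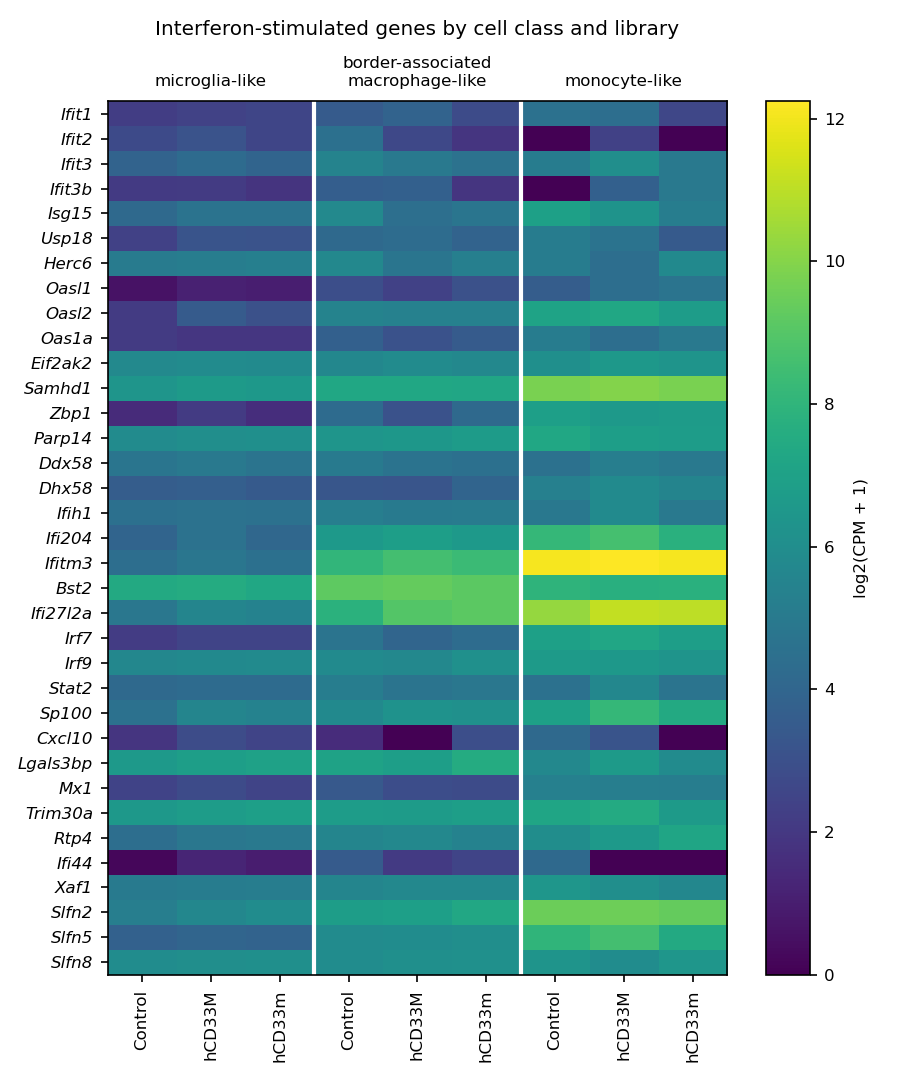
Level of the 35 members as log2(CPM + 1) in microglia-like, border-associated macrophage-like and monocyte-like cells of each library (colour scale; no error is drawn). Ifitm3 in monocyte-like cells, at 4349, 4856 and 4259 CPM, is the brightest row, and Bst2 is brightest in border-associated macrophage-like cells.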

How the data were processed

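Single-cell RNA of sorted mouse brain myeloid cells was read on the 10x platform, 1 library for each of 3 genotypes. Per the study's methods, the authors aligned reads to mm10 with Cell Ranger and handled cells with Seurat, and the deposited files hold UMI counts, unnormalized, for barcodes with over 200 genes. Here the study's filter was applied (at most 8000 genes and 10% mitochondrial UMIs). Cells were clustered with scanpy 1.11.5 (2000 variable genes, 15 components, Leiden resolution 0.5) without the members and listed pathway genes. Classes were named from marker lists. Scrublet called 0 doublets, so it did not work here and none were removed. Counts were summed by library and class and scaled to CPM. Ratios needed at least 5 CPM in the higher library and carry exact conditional binomial intervals, levels exact Poisson intervals and shares Clopper-Pearson intervals. UMIs of 1 library are not replicates, so these intervals hold no spread between animals, and no p-value was computed between genotypes. A share of 0 was given the limit that 3 counts allow. Genes were named by role, by passing 1.5-fold, or by the 20 highest and 5 lowest ratios in strong responders, and the other genes as examples chosen after their values were seen. Members, lists and anchor genes were chosen with earlier results of these data known. One gene of the pathway lists is not reported here. Scripts were tested on simulated data. Promoters were from RefSeq and gene positions from GENCODE. Alternatives covered scaling (TMM from edgeR 4.0.16, median of ratios from DESeq2 1.42.0), cell filters, doublets, minimum level, thinning depth, anchor limit and clustering.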

Additional observations from a re-analysis of the deposited data

How the results depend on the processing

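No paired analysis was possible because each genotype had 1 library, and no test between genotypes was made. Of 1343 values of single members under 17 alternatives, 1301 moved by less than their counting interval, 42 by more, and 0 called values changed sign. The median log2 ratio of hCD33M to Control (0.30) was 0.18 with strong responders left out and 0.18 in cells without an anchor UMI only. These medians, and the counts below at these settings, include the anchor genes that chose the cells, so they are no independent check. Over 20 members outside that choice the medians were 0.16 and 0.15. The count of members 1.5-fold apart in that pair (6) was 3 at a minimum of 20 CPM and 2 in cells without an anchor UMI. For hCD33m against Control (5) it was 3 with strong responders left out, 3 at 20 CPM and 8 with no minimum. For hCD33m against hCD33M (1) it was 2 with cells thinned to 2000 UMIs, 2 with no minimum, and 0 with strong responders left out, at 20 CPM and in cells without an anchor UMI. The higher minimum tests fewer genes; the cause of the other differences was not tested. Strong responders in Control, hCD33M and hCD33m were 0.335%, 0.528% and 0.349% at 1000 UMIs, 1.20%, 1.99% and 1.40% at 4000 UMIs, and 1.39%, 2.27% and 1.87% with at least 2 anchor genes. With at least 4 anchor genes they were 0.667% in hCD33M and 0.539% in hCD33m, and with at least 5 anchor UMIs 0.778% and 0.663%. Control had the lowest share under all 10 alternatives for the shares. The alternatives that left out the cluster without Control cells, kept only cells without an anchor UMI, or set the minimum for strong responders over all cells, were chosen after seeing the data. Depth limits members under 5 CPM in each library and any share under about 1%.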
